A study of Mus musculus with 1505 samples.

Results

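Pvalb Reln is one of the 9 transcriptomic types (t-types) of parvalbumin-positive interneuron to which single neurons of adult mouse primary motor cortex were assigned. Its members were the cells recorded at 25 °C whose label gives exactly this t-type, 72 of 1320 cells, and they were set beside the 214 cells of the 8 other Pvalb t-types: Pvalb Il1rapl2 (88 cells), Pvalb Calb1_2 (30), Pvalb Gpr149 (30), Pvalb Kank4 (22), Pvalb Vipr2_2 (17), Pvalb Egfem1 (11), Pvalb Calb1_1 (9) and Pvalb Gabrg1 (7). The cells were measured with Patch-seq, in which a neuron in an acute brain slice is recorded through a glass pipette and its contents are then drawn off for RNA sequencing, in most cells together with the nucleus. Adult mice of several Cre driver lines and wild-type mice supplied the slices of the whole study, but the labels give neither the line, the age nor the animal of a cell. The 286 Pvalb cells recorded at 25 °C share the tissue, the temperature and the amplification, with no treatment given in the labels. The 10 Pvalb cells recorded at 34 °C, described last, were kept in kynurenic acid and picrotoxin, which block fast glutamatergic and GABAergic transmission. Each t-type was therefore handled as 1 sample: values are described with their spread over cells, and no test across animals was possible. The t-types had been assigned by the authors from the same RNA, so that differences in expression between them describe the labels and are not independent of them.

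Parvalbumin-positive basket cells are fast-spiking GABAergic interneurons whose axons surround the cell bodies and proximal dendrites of their targets, and they supply much of the fast perisomatic inhibition of cortex. Reelin, the secreted glycoprotein encoded by Reln, guides neuronal migration during development and is made in the adult cortex by some interneurons, where it binds the receptors Vldlr and Lrp8 and acts through the adaptor Dab1. Tac1 encodes the precursor of substance P, which marks many Pvalb neurons of cortex. Basket morphology, soma depth and firing are not in the count tables and were not analysed here.

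The Pvalb Reln cells held between 21953 and 5702790 exonic counts (median 1397540), against 11411 to 13543800 (median 1444400) in the other Pvalb cells. After thinning to 200000 counts, the median cell had a read in 6320 genes in Pvalb Reln and 6367.5 genes in the other Pvalb cells. The share of counts that fell in introns was lower in Pvalb Reln (median 39.4% of exonic and intronic counts, against 44.3%). Whether the nucleus was extracted is not labelled per cell, and its part in that share was not tested. The share in spike-in sequences was higher in Pvalb Reln (median 3.87% against 2.68%). The dates in the sample names spread the Pvalb Reln cells over 44 days, with 17 cells in the last year of dates and 55 on earlier dates, whereas 117 other Pvalb cells fall in that last year and 97 on earlier dates. The 3 t-types Pvalb Vipr2_2, Pvalb Egfem1 and Pvalb Calb1_1 have no cell from the earlier dates, so that for them t-type and period cannot be told apart. In total, 36 dates hold cells of both groups.

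The labelled class was checked against its markers. Gad1, which makes GABA, was read in 98.6% of the Pvalb Reln cells, and the 8 markers of inhibitory neurons of the medial ganglionic eminence summed to 5928 CPM (counts per 1000000 exonic counts, from counts summed over cells), against 5781 CPM in the other Pvalb cells. Markers of excitatory neurons summed to 17.5 CPM, those of Sst neurons to 4.13 CPM and those of Vip, Sncg and Lamp5 neurons to 1.09 CPM in Pvalb Reln, against 19.8, 27.5 and 7.35 CPM in the other Pvalb cells. The 5 markers of chandelier cells summed to 197.9 CPM in Pvalb Reln and 177.2 CPM in the other Pvalb cells, and both tested members, Fgf9 (log2 fold change 0.38) and Pthlh (0.08), lay above 0. Vipr2, which names the chandelier type, had no read in any of the 72 Pvalb Reln cells, which allows a share of up to 4.17%, and was read in 15 of the 214 other Pvalb cells, 9 of them of Pvalb Vipr2_2. Markers of microglia were present: the 9 genes summed to 1595 CPM in Pvalb Reln and 949.9 CPM in the other Pvalb cells, with a range over cells of 0 to 14566 CPM (median 380.2) in Pvalb Reln and 0 to 16524 CPM (median 304.9) in the others. This sum was at or above 500 CPM in 34 of 72 Pvalb Reln cells and in 89 of 214 other Pvalb cells.

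**Figure D1:**
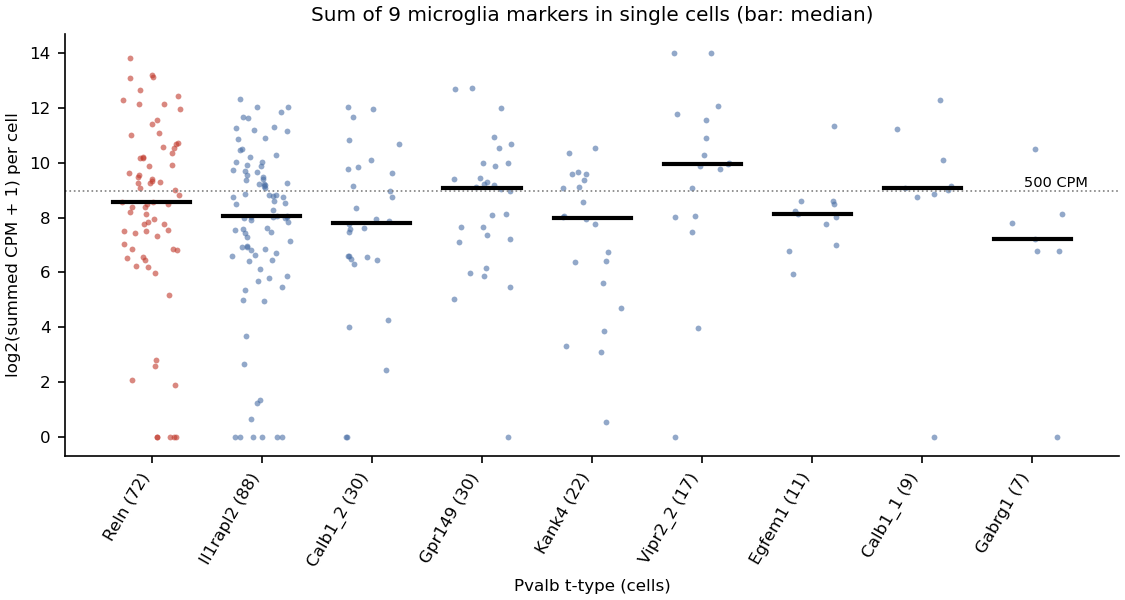
Sum of the 9 microglia markers in each cell, as log2(summed CPM + 1), by Pvalb t-type, with Pvalb Reln on the left in red; each point is a cell, bars are medians and the dotted line is 500 CPM. The median of Pvalb Reln (380.2 CPM) lies above that of Pvalb Il1rapl2 (265.6 CPM). It lies below those of the chandelier type Pvalb Vipr2_2 (989.3 CPM), Pvalb Gpr149 (538.0 CPM) and Pvalb Calb1_1 (533.6 CPM).

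The first question was how far the 3 marker genes set these cells apart. Pvalb, the calcium buffer that names the class, was read in all 72 Pvalb Reln cells, with a lowest value of 20.03 CPM, a median of 241.9 CPM and a highest of 2697 CPM per cell. It was read in 200 of the 214 other Pvalb cells (median 162.9 CPM, highest 2265 CPM). The ranges of the 2 groups overlap over almost their whole length. Over summed counts, Pvalb stood at 513.2 CPM in Pvalb Reln (95% Poisson interval 509.0 to 517.4, for counting error only, as all such intervals here) and 328.2 CPM in the other Pvalb cells, a log2 fold change of 0.64. This was the highest sum of the 9 t-types, but on the 36 dates with both groups Pvalb was higher in Pvalb Reln on 16 and lower on 20.

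Reln itself was sparse in the t-type that carries its name. It had a read in 24 of 72 Pvalb Reln cells (33.3%) and in 29 of 214 other Pvalb cells (13.6%). Thinned to equal depth, the shares were 23.2% in Pvalb Reln (16 of 69 cells, exact binomial interval 13.9 to 34.9%) and 5.39% in the other Pvalb cells (2.72 to 9.44%). Binomial intervals here and for Tac1 take each cell as an independent draw and do not cover spread between animals or dates. Of the 72 Pvalb Reln cells, 47 share their date with another. The lowest and the median Pvalb Reln cell had 0 CPM and the highest 250.9 CPM, and 14 cells reached 10 CPM, against 7 of the other Pvalb cells, of which the highest had 121.7 CPM. A few cells thus carried the sum: 5 Pvalb Reln cells held 77.4% of their group's 2809 Reln reads. The summed level was 24.99 CPM in Pvalb Reln (24.08 to 25.93) and 3.75 CPM in the other Pvalb cells (3.56 to 3.96), a log2 fold change of 2.45. Among the other t-types only Pvalb Calb1_2 came near, with 23.1 CPM and a read in 10 of 30 cells, and these 2 t-types cannot be set in an order, since their shares of cells with a read are the same. The 7 remaining t-types had between 0 and 0.27 CPM. Intronic reads of Reln, which come from unspliced RNA, stood at 97.5 CPM in Pvalb Reln and 18.5 CPM in the other Pvalb cells (log2 fold change 2.34).

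Tac1, taken as a marker of this t-type together with Pvalb and Reln, went against that choice, since it was lower in Pvalb Reln. It was read in 29 of 72 Pvalb Reln cells (40.3%) and in 171 of 214 other Pvalb cells (79.9%). After thinning, the shares were 37.7% (26.3 to 50.2%) in Pvalb Reln and 77.9% (71.6 to 83.4%) in the other Pvalb cells. The median Pvalb Reln cell had 0 CPM and the highest 1633 CPM, whereas the median of the other Pvalb cells was 446.9 CPM and their highest 5001 CPM. Summed counts gave 194.1 CPM in Pvalb Reln and 723.1 CPM in the other Pvalb cells, a log2 fold change of -1.89, and Tac1 was lower in Pvalb Reln on 27 of the 36 shared dates and higher on 7. Of the 9 t-types only the chandelier type Pvalb Vipr2_2 stood lower (41 CPM), and Pvalb Kank4, with 208.6 CPM, was close to Pvalb Reln. Among cells with a Tac1 read, the median was 335.8 CPM in Pvalb Reln, against 669.4 CPM in the other Pvalb cells and 378.5 CPM in Pvalb Il1rapl2.

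Reads of Reln and of Tac1 rarely fell in the same Pvalb Reln cell. Of 69 thinned Pvalb Reln cells, 1 had both, 15 had Reln without Tac1, 25 had Tac1 without Reln and 28 had neither. In Pvalb Calb1_2, all 6 thinned cells with a Reln read also had Tac1. Neither gene therefore marked the whole of Pvalb Reln, whereas Syt2 and Cntn5, described below, were both read in 48 of the 69 thinned cells and both missing in 3.

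**Figure D2:**
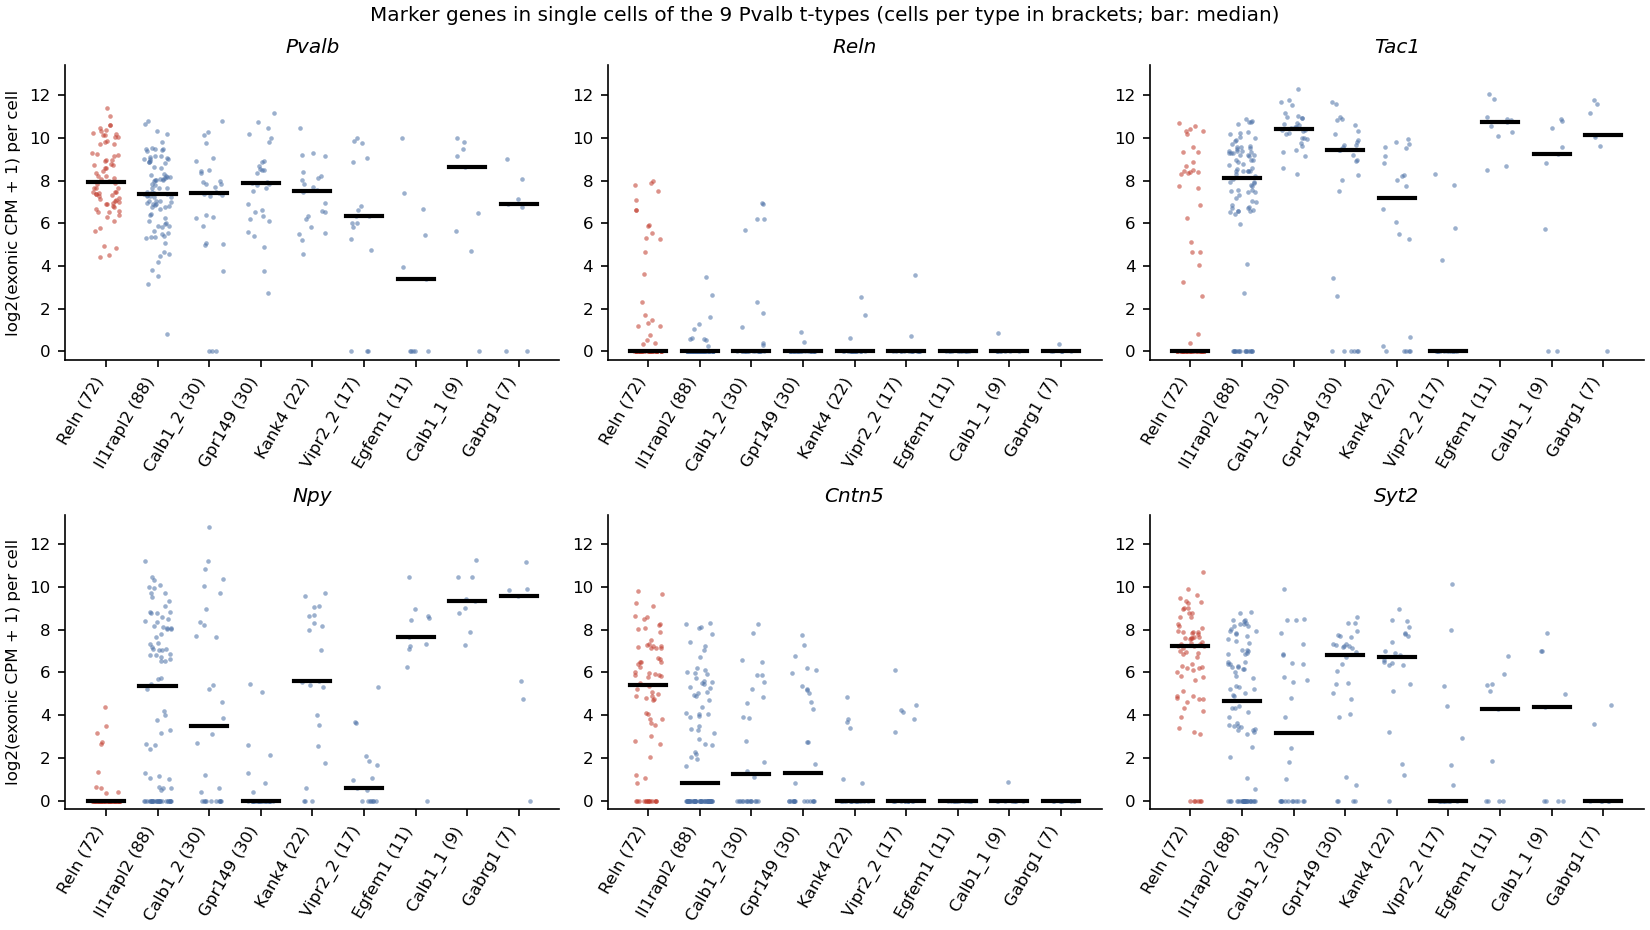
Exonic log2(CPM + 1) per cell of Pvalb, Reln, Tac1, Npy, Cntn5 and Syt2 in the 9 Pvalb t-types, with Pvalb Reln on the left in red and the number of cells in brackets; each point is a cell and bars are medians. Tac1 and Npy have a median of 0 in Pvalb Reln, whereas Cntn5 and Syt2 have their highest median there among the 9 types.

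The next comparison asked which other genes separate Pvalb Reln from the rest of the Pvalb class. Of 10170 genes with a mean of at least 10 CPM over the 2 groups and a read in at least 10% of all cells, 198 (1.95%) were at least 2-fold higher in Pvalb Reln and 427 (4.20%) at least 2-fold lower, on the scale of log2(CPM + 1). The median log2 fold change over all tested genes was -0.05. The 15 leading genes in each direction were those of largest fold change that reached 50 CPM in the higher group and had a read in at least 25% of its cells, with the same direction in the mean over cells.

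Of the 15 genes higher in Pvalb Reln, 3 act in cell adhesion, transmitter release or axon guidance. Cntn5, the one of largest fold change and a contactin of the immunoglobulin family that sits on the neuronal surface, was read in 58 of 72 Pvalb Reln cells (median 42.1 CPM, highest 893.7 CPM) and in 89 of 214 other Pvalb cells (median 0 CPM, highest 314.8 CPM). Its sums were 104.9 CPM in Pvalb Reln and 21.2 CPM in the other Pvalb cells, a log2 fold change of 2.26, and it was higher in Pvalb Reln on 27 of 36 dates and lower on 8. Cells with at least 100 CPM made up 30.6% of Pvalb Reln and 6.54% of the other Pvalb cells, so that the groups overlap mainly below that level. Syt2, the calcium sensor for fast transmitter release at many inhibitory terminals, was read in 66 of 72 Pvalb Reln cells (median 148.1 CPM, highest 1683 CPM) and in 149 of 214 other Pvalb cells (median 29.6 CPM, highest 1136 CPM). The sums were 228.5 CPM in Pvalb Reln and 85.8 CPM in the other Pvalb cells (log2 fold change 1.40). Both genes ranked first of the 9 t-types, Cntn5 before Pvalb Gpr149 (41.8 CPM) and Syt2 before Pvalb Kank4 (117.3 CPM), and their intronic reads were higher too, by 1.91 for Cntn5 and 1.47 for Syt2 on the log2 scale. Sema6a, a transmembrane semaphorin of axon guidance, stood at 79.3 CPM in Pvalb Reln and 34.2 CPM in the other Pvalb cells (log2 fold change 1.19), with Pvalb Il1rapl2 next in rank (56.7 CPM). On the dates with both groups, Syt2 and Sema6a were below 2-fold, with log2 fold changes of 0.90 and 0.65, and Cntn5 had 1.94.

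Other genes in this direction encode matrix, membrane and cytoskeletal proteins. Col16a1, a collagen that associates with fibrils, was read in 36 of 72 Pvalb Reln cells (highest 1408 CPM) and in 49 of 214 other Pvalb cells (highest 634.4 CPM). It stood at 125.2 CPM in Pvalb Reln and 37.9 CPM in the other Pvalb cells, a log2 fold change of 1.70, but Pvalb Kank4 had 114.5 CPM, and the 2 t-types differ by less than the spread over their cells. Rab31, a small GTPase of vesicle traffic (80.7 against 26 CPM, log2 fold change 1.60), Anxa5, a calcium-dependent binder of phospholipids (79 against 29.9 CPM, 1.37), and Arpc1b, a subunit of the Arp2/3 complex (55.2 against 13.8 CPM, 1.92), each ranked first of the 9 t-types in Pvalb Reln. In these 3 genes a single cell held 25.1, 27.3 and 28.2% of the Pvalb Reln reads, in the order given. Lmo2, a LIM-only transcriptional cofactor, was read in 62.5% of the Pvalb Reln cells and 57.5% of the others and stood at 96.1 against 38.8 CPM (1.29), with 0.83 on the dates with both groups. Tcap, known as a sarcomere protein of muscle (66.9 against 24.3 CPM, 1.43), and Svip, a small partner of the ATPase VCP (72.2 against 29.8 CPM, 1.25), complete this group, and Svip was higher in Pvalb Reln on 13 shared dates and lower on 16.

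The last 5 of the 15 include genes of immune cells. Csf1r, the receptor that microglia depend on, stood at 284.4 CPM in Pvalb Reln and 111.3 CPM in the other Pvalb cells (log2 fold change 1.35), although its share of cells with a read was 31.9% in Pvalb Reln and 31.8% in the others, and 5 Pvalb Reln cells held 81.6% of the reads. H2-K1, a heavy chain of class I histocompatibility molecules (117.8 against 47 CPM, 1.31, but higher in Pvalb Reln on 11 shared dates and lower on 16), Ighm, the heavy chain of immunoglobulin M (65.5 against 26.1 CPM, 1.29), and Unc93b1, which carries Toll-like receptors to endosomes (53.4 against 22 CPM, 1.25), were higher in the sums as well. Evi2 (67.5 against 23.2 CPM, 1.50) shares 57.6% of its exonic bases with Evi2a and Evi2b in the annotation, so that its reads cannot be assigned to it alone. Csf1r and Arpc1b share 15.1% and 18.2% of theirs with Hmgxb3 and Pdap1, and the levels of these 3 genes are uncertain to that extent. In cells with under 500 CPM of summed microglia markers (38 Pvalb Reln and 125 other Pvalb cells), an alternative chosen after the data were seen, the log2 fold changes were -0.92 for H2-K1, -0.11 for Ighm, -0.91 for Unc93b1, 0.77 for Csf1r and 0.94 for Evi2, and Csf1r stood at -0.18 in the last year of dates. Csf1r is itself among the markers summed to choose the cells under 500 CPM, so that its value there is not independent of that choice. In the same cells Cntn5 kept a log2 fold change of 2.22, Col16a1 1.85, Arpc1b 1.42 and Syt2 1.27, whereas Sema6a had 0.85. Of the 15 genes, 12 were above 0 and 9 at least 2-fold higher in those cells.

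The genes lower in Pvalb Reln had larger fold changes, led by a neuropeptide. Npy, whose peptide is released by many Pvalb and Sst neurons, had a read in 10 of 72 Pvalb Reln cells, with a median of 0 and a highest value of 19.8 CPM, and in 142 of 214 other Pvalb cells, with a median of 11.7 and a highest value of 7102 CPM. No Pvalb Reln cell reached 100 CPM, against 81 of the other Pvalb cells. The sums were 0.94 CPM in Pvalb Reln (0.77 to 1.14) and 266.7 CPM in the other Pvalb cells (265.0 to 268.4), a log2 fold change of -7.11, and Npy was lower in Pvalb Reln on 28 dates and higher on none. Pvalb Reln ranked last of the 9 t-types, next to Pvalb Gpr149 (3.7 CPM) and Pvalb Vipr2_2 (3.8 CPM), in which the median cells had 0 and 0.5 CPM. These 3 types thus lacked the Npy reads of the other 6, where the sums ran between 152.6 CPM in Pvalb Kank4 and 869.1 CPM in Pvalb Gabrg1. Cort, the precursor of cortistatin, was lower in Pvalb Reln as well, at 2.94 against 21.65 CPM (log2 fold change -2.52), with a read in 23.6% of the Pvalb Reln cells and 55.6% of the others.

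Zcchc12, a zinc-finger transcriptional coactivator, was read in 3 of 72 Pvalb Reln cells, none above 8.7 CPM, and in 76 of 214 other Pvalb cells, the highest with 1228 CPM. Its sums were 0.19 CPM in Pvalb Reln and 52.5 CPM in the other Pvalb cells (log2 fold change -5.49). Chrm2, the M2 muscarinic acetylcholine receptor, was read in 3 Pvalb Reln cells and 70 other Pvalb cells and stood at 0.96 CPM in Pvalb Reln and 54.6 CPM in the others (-4.83), but 96.3% of its Pvalb Reln reads came from 1 cell, and Pvalb Il1rapl2 was at 0.2 CPM. Rbp4, the plasma carrier of retinol (5.01 against 91.5 CPM, -3.94), and Dgkg, a diacylglycerol kinase (4.36 against 52.5 CPM, -3.32), followed, and Dgkg ranked last of the 9 t-types. Moxd1, a monooxygenase of the dopamine beta-hydroxylase family (8.09 against 86.1 CPM, -3.26), Grhl3, a grainyhead-like transcription factor (7.20 against 62.2 CPM, -2.95), and Ralyl, an RNA-binding protein (9.04 against 64.1 CPM, -2.70), were each read in at most 20.8% of the Pvalb Reln cells and in at least 39.7% of the others. For Ralyl, 35.6% of the exonic bases are shared with another annotated gene, Gm2464. Tchh (7.67 against 53.6 CPM, -2.65), Pcdh11x, a protocadherin (9.0 against 57.6 CPM, -2.55), and Lypd6, which binds nicotinic acetylcholine receptors (17.9 against 79.3 CPM, -2.09), were lower too, and Tmem131l was at 27.8 CPM in Pvalb Reln and 110.6 CPM in the other Pvalb cells (-1.95).

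Calb1, which encodes the calcium buffer calbindin, and 2 collagens were lower than in some of the other types and not in every one. Calb1 had 12.4 CPM in Pvalb Reln, with 12 of 72 cells read and 65% of the reads in 1 cell, against 74.4 CPM in the other Pvalb cells (log2 fold change -2.49), and 5 of the 8 other types were between 0 and 13 CPM. Col25a1, a membrane collagen (6.05 against 65.9 CPM, -3.25), was at 176.8 CPM in Pvalb Il1rapl2 and at no more than 13.5 CPM in any other type. Col24a1 (13.2 against 64.3 CPM, -2.20) was high in Pvalb Gpr149 (156.4 CPM), Pvalb Il1rapl2 (108.5 CPM) and Pvalb Gabrg1 (81.5 CPM). For the 15 leading genes of this direction, Pvalb Reln ranked last of the 9 t-types for 6, whereas it ranked first for 11 of the 15 leading genes of the other direction. All 15 lower genes stayed at least 2-fold lower under each of the 14 alternatives of cells, scaling and weighting, including each period alone. These genes were chosen by their fold changes in the same cells, which the alternatives reuse, so that the outcome was in large part fixed by that choice.

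**Figure D3:**
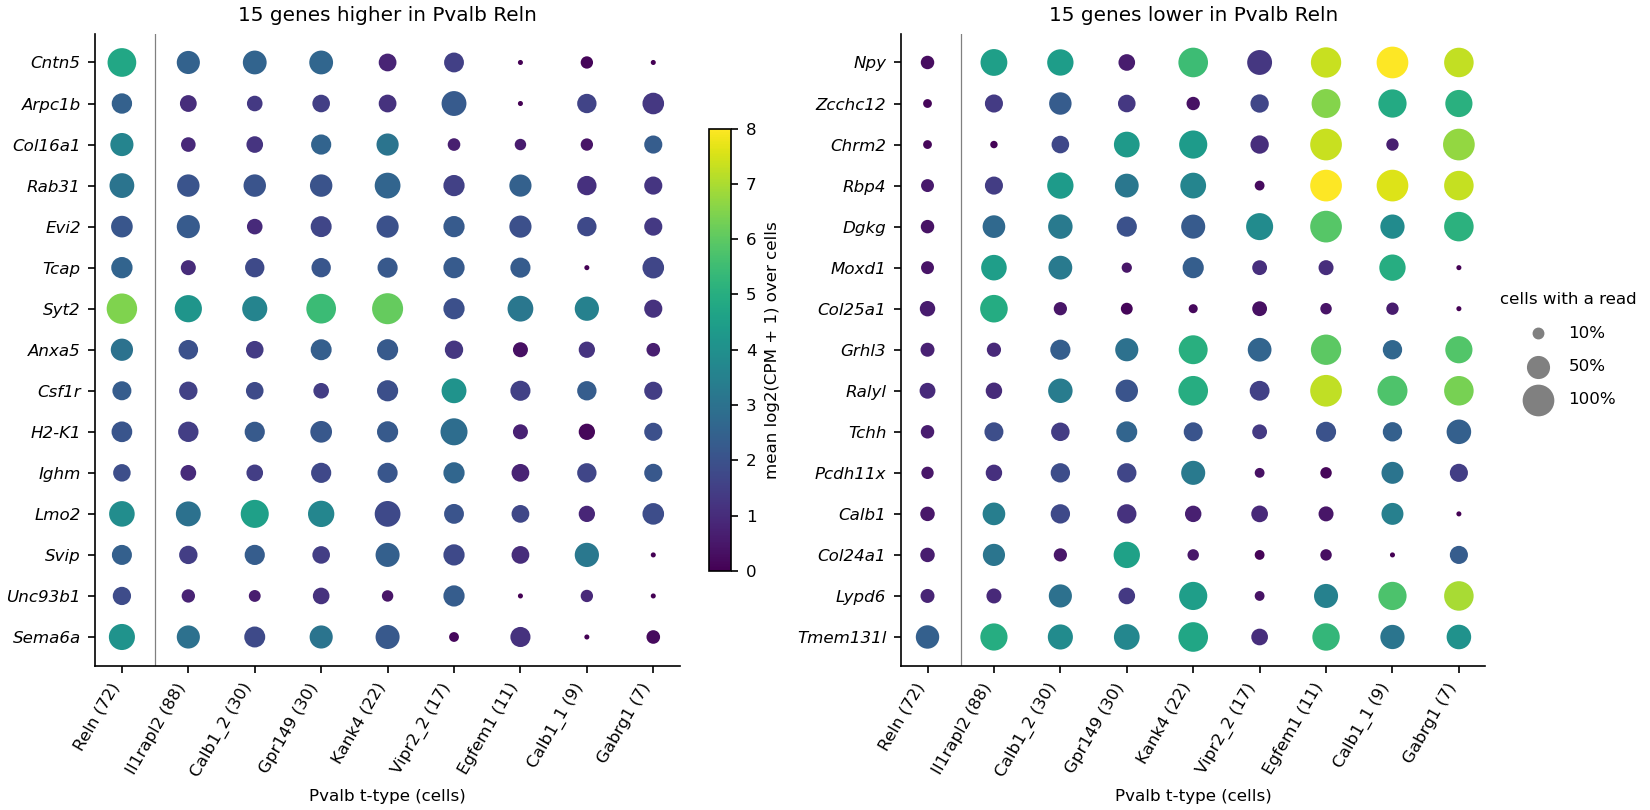
The 15 leading genes in each direction over the 9 Pvalb t-types, with Pvalb Reln as the left column; colour gives the mean of log2(CPM + 1) over cells and dot size the percentage of cells with a read. Npy, read in 10 of 72 Pvalb Reln cells, is also low in Pvalb Gpr149 and Pvalb Vipr2_2, and Cntn5 and Syt2 have their brightest dots in Pvalb Reln.

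The start regions of the 2 marker genes and of the leading gene in each direction are shown as reference sequence, because the comparisons turn on these 4 genes. They run from 250 bases before to 50 bases after a RefSeq transcription start of the GRCm38.p6 assembly, on the strand of the gene, and all 4 genes matched the table by symbol. Reln lies at chr5:22344656-22344955 (minus strand), Tac1 at chr6:7554811-7555110 (plus), Npy at chr6:49822460-49822759 (plus) and Cntn5, at the upstream one of its 2 listed starts, at chr9:10904726-10905025 (minus). Capitals mark matches on either strand to the GC box (GGGCGG) and to the sequence of the CCAAT box.
Reln: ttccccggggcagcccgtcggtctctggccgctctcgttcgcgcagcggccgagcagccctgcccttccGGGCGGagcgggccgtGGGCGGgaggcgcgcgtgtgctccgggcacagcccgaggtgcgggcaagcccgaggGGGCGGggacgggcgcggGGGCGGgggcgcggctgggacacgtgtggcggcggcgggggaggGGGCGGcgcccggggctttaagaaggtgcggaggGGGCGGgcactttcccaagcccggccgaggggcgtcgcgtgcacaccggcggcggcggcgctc
Tac1: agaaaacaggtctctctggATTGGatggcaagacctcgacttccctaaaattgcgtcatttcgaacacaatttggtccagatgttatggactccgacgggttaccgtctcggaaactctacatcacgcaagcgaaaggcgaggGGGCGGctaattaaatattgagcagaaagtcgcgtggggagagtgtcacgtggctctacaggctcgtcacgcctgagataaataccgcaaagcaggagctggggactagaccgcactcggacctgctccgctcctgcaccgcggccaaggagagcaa
Npy: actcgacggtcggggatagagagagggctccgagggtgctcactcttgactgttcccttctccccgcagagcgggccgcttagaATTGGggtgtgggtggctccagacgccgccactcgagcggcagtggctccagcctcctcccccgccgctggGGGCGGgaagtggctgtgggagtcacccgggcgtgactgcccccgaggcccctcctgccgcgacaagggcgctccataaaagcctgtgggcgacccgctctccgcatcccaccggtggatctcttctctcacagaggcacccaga
Cntn5: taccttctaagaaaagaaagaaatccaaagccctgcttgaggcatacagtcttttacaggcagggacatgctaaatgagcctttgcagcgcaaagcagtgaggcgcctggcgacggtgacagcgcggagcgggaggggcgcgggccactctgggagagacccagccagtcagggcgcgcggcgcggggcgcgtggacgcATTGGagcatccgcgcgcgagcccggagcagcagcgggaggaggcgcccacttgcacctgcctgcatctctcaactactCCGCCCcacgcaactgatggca
Reln holds 6 GC boxes and no CCAAT box, and Tac1, Npy and Cntn5 hold 1 of each. No match overlaps another, and TATAAA, the third motif searched, is in none of these 4 windows. Among all 32851 windows of this length in the table, 35.7% hold GGGCGG, 37.4% hold CCAAT and 13.6% hold TATAAA, so that matches to the first 2 are common.

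The mean profile of Pvalb Il1rapl2 lay nearest to that of Pvalb Reln, but the distances follow the number of cells behind each mean almost in order and were not compared at equal numbers. Pvalb Il1rapl2, with 88 cells, lay at a correlation distance of 0.0317 over the 1000 most variable genes, against 0.0412 for Pvalb Gpr149 and 0.0427 for Pvalb Calb1_2 (30 cells each) and 0.134 for Pvalb Gabrg1 (7 cells), the most distant. Each Pvalb Reln cell was also compared with the mean of every Pvalb t-type, leaving the cell itself out. Of 72 cells, 41 were nearest to Pvalb Reln, 19 to Pvalb Il1rapl2, 5 to Pvalb Calb1_2, 5 to Pvalb Calb1_1, and 1 each to Pvalb Gpr149 and Pvalb Vipr2_2. The median distance was 0.272 to the cells' own type and 0.277 to the nearest other type, a small margin. The 31 cells nearest to another type were shallower (median 1262760 exonic counts) than the 41 nearest to their own (median 1556050). Leaving out all cells of the same date gave 38 of 72.

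Against Pvalb Il1rapl2 alone, 352 of 10094 tested genes (3.49%) were at least 2-fold higher in Pvalb Reln and 435 (4.31%) at least 2-fold lower. Both comparisons share the same Pvalb Reln cells, so that their values are given side by side and not as support for each other. Sums of microglia, astrocyte and oligodendrocyte markers were higher in Pvalb Reln in this comparison too. The microglia markers summed to 1595 CPM in Pvalb Reln and 805.0 CPM in Pvalb Il1rapl2, with 9 of 9 above 0 and 2 past 2-fold. The astrocyte markers summed to 627.4 and 318.7 CPM, but of 5 tested 3 were above 0 and 2 below (lowest log2 fold change -0.74). The 6 oligodendrocyte markers used here summed to 757.3 and 369.1 CPM. The summed markers of excitatory neurons, of Sst neurons and of Vip, Sncg and Lamp5 neurons were not higher in Pvalb Reln. The 10 tested genes of the mitochondrial genome had a median log2 fold change of 0.90. The part of these shifts in the calls was not tested. Col16a1 stood at 125.2 CPM in Pvalb Reln and 12 CPM in Pvalb Il1rapl2 (log2 fold change 3.27), and Tcap at 66.9 and 11.6 CPM (2.43). Of the 15 genes that led upwards against all other Pvalb cells, 13 were at least 2-fold higher against Pvalb Il1rapl2 as well, and the remaining 2, Anxa5 and Sema6a, had 0.95 and 0.48. Of the 15 that led downwards, 11 were at least 2-fold lower. Il1rapl2, a receptor-like synaptic protein that names the neighbouring type, was at 62.8 CPM in Pvalb Reln and 235.0 CPM in Pvalb Il1rapl2 (-1.89), with a read in 31 of 72 and 74 of 88 cells. Ntng1, netrin G1, had 0.52 CPM in Pvalb Reln and 67.8 CPM in Pvalb Il1rapl2 (-5.50), and Etv1, a transcription factor, had 7.80 and 70.3 CPM (-3.02). Cnr1, the cannabinoid receptor CB1, was at 36.7 CPM in Pvalb Reln and 4.89 CPM in Pvalb Il1rapl2 (2.68), and Grm3, a metabotropic glutamate receptor, at 26.7 and 5.60 CPM (2.07). Tac1 was lower in Pvalb Reln than in this type too, at 194.1 against 423.1 CPM (-1.12).

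Gene lists were then compared between Pvalb Reln and all other Pvalb cells, each as a count set against the 1.95% higher and 4.20% lower of all tested genes. For counts above or below 0 the share of all tested genes is not given, and the median log2 fold change of all tested genes was -0.05. Neuropeptides had the lowest median of these lists: of 6 tested genes, 4 were at least 2-fold lower in Pvalb Reln (Npy, Cort, Tac1 and Pnoc, the precursor of nociceptin, at 4.26 against 17.6 CPM) and none higher, and the median stood at -1.86. Cck, the precursor of cholecystokinin, was the exception at 167.2 against 127.1 CPM (0.39). Pnoc was not lower than in every type: it had a read in 12 of 72 Pvalb Reln cells (highest 89.2 CPM) and in 2 of 88 Pvalb Il1rapl2 cells (highest 0.49 CPM). Of 5 tested neuropeptide receptors none passed 2-fold in either direction. Calcium-binding proteins held 4 lower and 0 higher of 13, namely Necab1 (1.94 against 23.8 CPM, -3.08), Necab3 (7.36 against 26.9 CPM, -1.74), Hpcal4 (-1.13) and Calb1, while Pvalb itself was at 0.64.

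Of 10 tested genes of the reelin pathway, Reln was the 1 at least 2-fold higher and none was 2-fold lower. The receptors Vldlr (72 against 90.9 CPM, log2 fold change -0.33) and Lrp8 (72.9 against 99.3 CPM, -0.44), the adaptor Dab1 (47.9 against 71.3 CPM, -0.56) and the kinase Fyn (38.6 against 40.2 CPM, -0.06) all stayed within 2-fold.

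All 10 tested genes of AMPA receptors and their auxiliary subunits were below 0 (median -0.55), and 2 of them, Cnih3 (4.18 against 31.1 CPM, -2.63) and Shisa7 (15.6 against 33.3 CPM, -1.05), passed 2-fold. Against Pvalb Il1rapl2 alone, 3 of the 9 tested genes of this list were above 0 (highest 0.52) and 6 below. Gria1, the GluA1 subunit, was at 356.6 CPM in Pvalb Reln and 704.6 CPM in the other Pvalb cells (-0.98), and lower in Pvalb Reln on 30 of 36 dates. Gria4, the GluA4 subunit, was at 169.5 against 333.8 CPM (-0.97), also lower on 30 dates. Both genes ranked next to last of the 9 t-types. Of 8 tested NMDA and kainate receptor genes none passed 2-fold, and Grin2a, the GluN2A subunit, was at 263.3 against 153.4 CPM (0.78), with 311.4 CPM in Pvalb Il1rapl2. For metabotropic receptors, 3 of 14 were at least 2-fold lower: Chrm2, Chrm1 (19.3 against 42.2 CPM, -1.09) and Cnr1 (36.7 against 75.4 CPM, -1.02), of which Cnr1 stood at 0.85 on the earlier dates.

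Several genes of cell contact were lower in Pvalb Reln. Of 19 tested cadherins and protocadherins, 5 were at least 2-fold lower and none higher (median -0.56), among them Pcdh17 (47.6 against 180.1 CPM, -1.90), Cdh8 (9.23 against 41 CPM, -2.04) and Pcdh8 (7.99 against 21 CPM, -1.29). Of 30 synaptic adhesion genes, 6 were lower and 2 higher, with Nxph2, a neurexophilin (6.10 against 32.9 CPM, -2.26), at one end and Cntn5 at the other. Of 25 axon guidance genes, 5 were lower and 1, Sema6a, higher. The lower ones include Ntng1 (0.52 against 31.9 CPM, -4.43), Dcc, the netrin receptor (0.58 against 22.8 CPM, -3.92), Slit3, a ligand of Robo receptors (7.56 against 44.3 CPM, -2.40), and Sema6d (22 against 52.3 CPM, -1.21). Of 10 tested genes of neurotrophin and neuregulin signalling, 3 were lower: Igf1 (1.61 against 20.2 CPM, -3.02), Igfbp4, a binding protein of insulin-like growth factors (18.6 against 73.7 CPM, -1.93), and Ntrk3, the neurotrophin-3 receptor (151.9 against 318.7 CPM, -1.06).

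Few genes of ion channels and transmitter release passed 2-fold. Among 4 families of potassium channels, with 3 (Kv3), 10 (Kv1), 10 (Kv2 and Kv4) and 17 (others) tested genes, none was at least 2-fold higher and 1, the Kv1-associated Lgi1 (18.4 against 40.1 CPM, -1.08), was lower. Kcnc1, which encodes the fast-spiking channel Kv3.1, was at 629.5 CPM in Pvalb Reln and 581.9 CPM in the other Pvalb cells (0.11), and Kcnc2 (Kv3.2) at 393.5 against 678.8 CPM (-0.78). Of 13 sodium channel genes none passed 2-fold. Pex5l, a partner of HCN channels (9.97 against 29.7 CPM, -1.48), and Cacnb2, a calcium channel subunit (24.1 against 56.2 CPM, -1.19), were the 1 lower gene of each of those lists. Of 17 synaptotagmin, complexin and SNARE genes 13 were above 0, with Syt2 the 1 past 2-fold, Vamp1 at 556.5 against 337.5 CPM (0.72) and Cplx1 at 1799 against 1250 CPM (0.53). Among 22 tested interneuron transcription factors, Npas3 was higher (22.3 against 9.22 CPM, 1.19) and Etv1 lower (7.80 against 30.2 CPM, -1.83), and Lhx6 and Sox6 had 0.31 and 0.19.

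Transcripts of mitochondria were mostly higher in Pvalb Reln, with no gene past 2-fold. All 10 tested genes of the mitochondrial genome were above 0 (median 0.45), summing to 23561 CPM in Pvalb Reln and 17450 CPM in the other Pvalb cells, and the median cell had 16190 CPM in Pvalb Reln and 9399 CPM in the others. Of 27 nuclear genes of oxidative phosphorylation, 25 were above 0 (median 0.26). The 9 microglia markers were all above 0 as well (median 0.76), with Csf1r the 1 past 2-fold. Of 5 tested astrocyte markers 3 were above 0, Slc1a3 (64.8 against 27.9 CPM, 1.19), Slc1a2 (119.8 against 60.8 CPM, 0.97) and Aldoc (397.4 against 212.3 CPM, 0.90). The other 2 were below 0, Gja1 (-0.39) and Aldh1l1 (-0.18). Gfap, too low to be tested, was at 0.01 CPM in Pvalb Reln and 2.45 CPM in the others. The 6 oligodendrocyte markers used here summed to 757.3 CPM in Pvalb Reln and 598.6 CPM in the other Pvalb cells. Of the 2 that were tested, Mbp, a myelin protein, had a log2 fold change of 0.50 and Mobp had -0.19. Mog, too low to be tested, was at 0.02 CPM in Pvalb Reln and 2.65 CPM in the others. The part of RNA from other cells, of depth and of the share of intronic reads in these shifts was not tested.

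**Figure D4:**
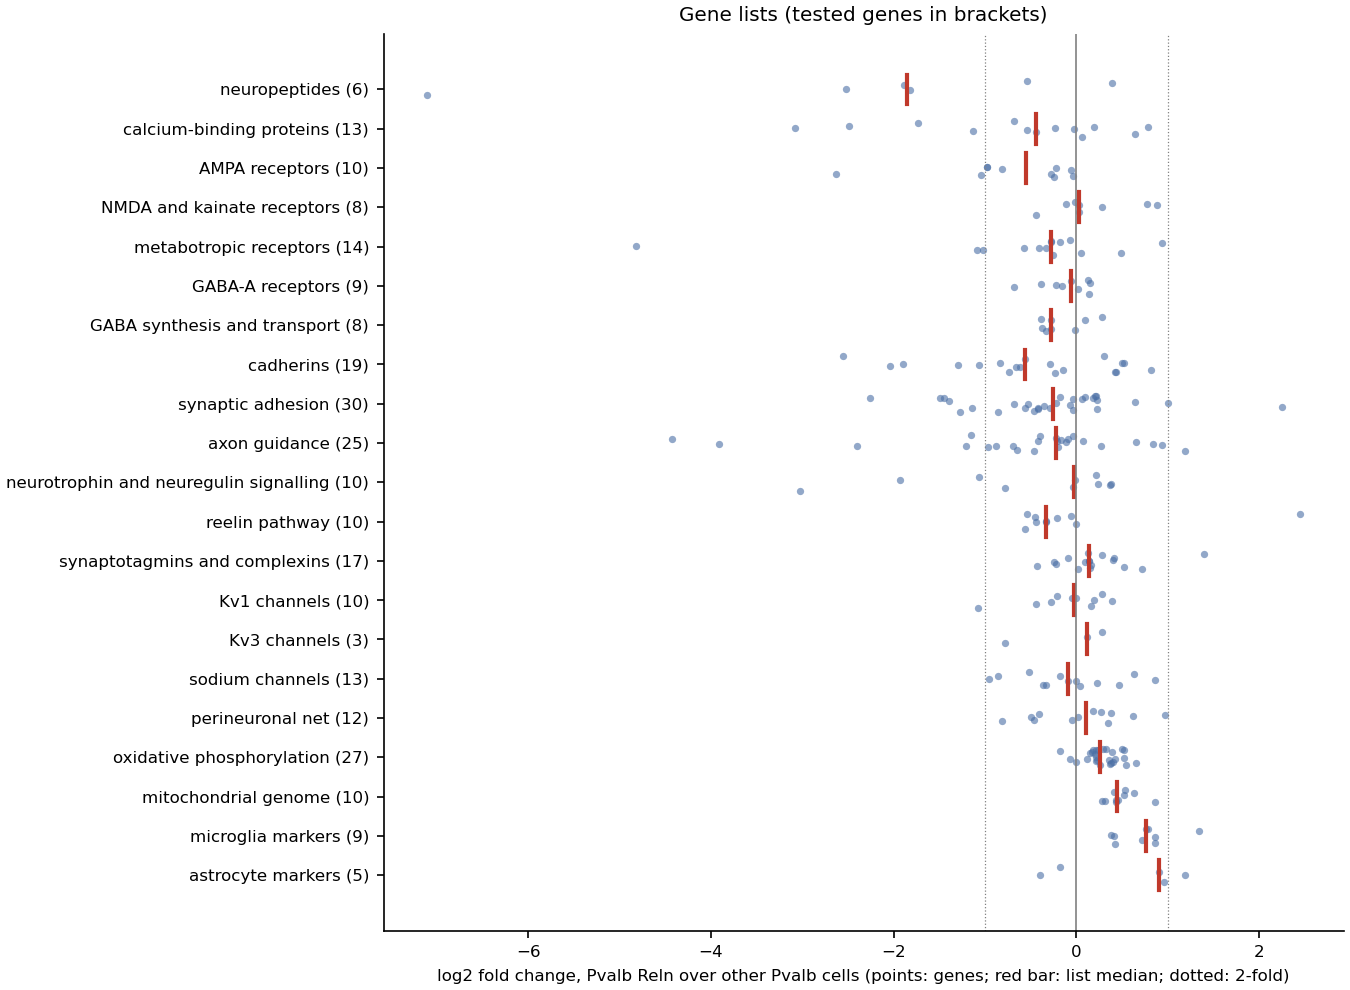
Log2 fold change of each tested gene, Pvalb Reln over other Pvalb cells, by gene list; points are genes, red bars are list medians, dotted lines are 2-fold and the number of tested genes is in brackets. Neuropeptides have the lowest median (-1.86) of the lists drawn, and all genes of the mitochondrial genome and all microglia markers lie above 0.

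The fold changes were compared across the cells used. Reln was higher in Pvalb Reln in both periods, with log2 fold changes of 4.63 on the earlier dates and 1.28 in the last year, and 19 of the 30 cells of Pvalb Calb1_2, the other type with Reln reads, are from that last year. The part of that mix of types in the difference between periods was not tested. Tac1 had -1.65 and -2.08 in these periods, Npy -6.82 and -7.39, and Cntn5 1.98 and 1.78. Syt2 was below 2-fold on the earlier dates (0.78) and above it in the last year (1.98), and Sema6a likewise (0.52 and 1.72). Pvalb had 0.31 on the earlier dates and 1.17 in the last year.

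**Figure D5:**
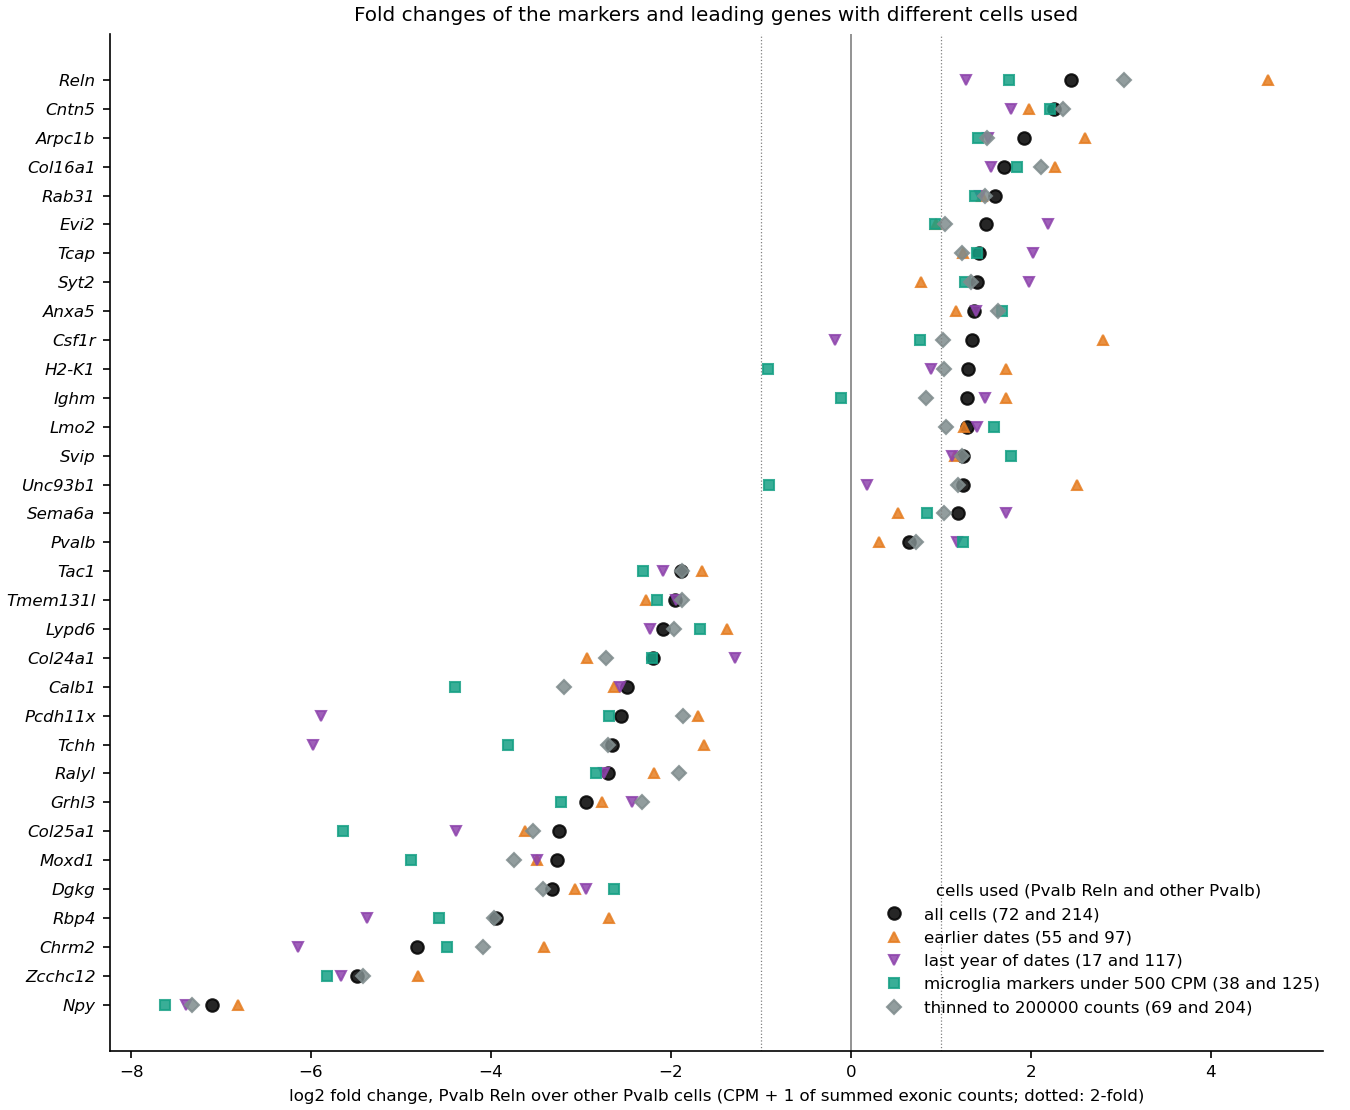
Log2 fold change, Pvalb Reln over other Pvalb cells, of Reln, Pvalb, Tac1 and the 15 leading genes in each direction, for all cells (black) and 4 other choices of cells given in the legend with their numbers; dotted lines are 2-fold. All markers of the lower genes lie left of -1, and Csf1r, H2-K1, Ighm and Unc93b1 have markers on both sides of 0.

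At 34 °C, with the synaptic blockers present, 2 cells of Pvalb Reln and 8 cells of other Pvalb t-types were in the tables, none of them Pvalb Il1rapl2. One of the Pvalb Reln cells had 6551 exonic counts, too few for single genes, and the other 1197577. Among the other 8 cells, a Pvalb Kank4 cell had only 8953 exonic counts. The Pvalb Calb1_1 cell had 6541 CPM of summed microglia markers. Both are included in the ranges below. Neither Pvalb Reln cell had a Reln read. In the deeper cell Tac1 stood at 890.1 CPM, within the range of the other 8 cells (0 to 2471 CPM), Npy at 0.84 CPM, against 53.8 to 1454 CPM in the other 8, and Cntn5 at 68.5 CPM, against 0 to 38 CPM. Over summed counts, 14 of the 15 leading lower genes were lower in the 34 °C Pvalb Reln cells than in the other 8, while of the 15 leading higher genes 5 were higher and 9 lower. The share of all genes that were lower at 34 °C is not given here, so that neither count can be set against it. With 1 deep cell these values have no replicate.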

How the data were processed

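The deposited tables hold exonic and intronic read counts per gene and cell. Per the labels and the study's methods, the authors amplified RNA with Smart-seq2, sequenced 75-bp single-end reads, aligned them to mm10 with STAR 2.5.4b and counted without molecular identifiers. Copies made in amplification are therefore not told apart. The Poisson intervals take each read as independent, so that they are too narrow even for counting error, and they do not cover the spread over cells. Of 1329 columns in the 25 °C table, 9 matched no labelled sample and were not used. The 85 spike-in rows (3.48% of exonic counts of the Pvalb cells) were left out of the totals. Within a group, the cells' counts were added up and scaled to CPM, and fold changes were taken as log2(CPM + 1) of Pvalb Reln minus that of its reference. With 1 sample per t-type no test was run, and a gene was called at 2-fold. Tested genes had a mean of at least 10 CPM over both groups and a read in at least 10% of the cells. Cells were thinned to 200000 counts to compare shares of cells. Named genes were the markers, the genes in type names, the 15 leading genes in each direction and up to 4 genes of each list by size of change. Aldh1l1, Cck, Fyn, Gfap, Lrp8, Mog, Sox6 and Vldlr fall outside that rule and were named after their values were seen. The members and the 40 gene lists were chosen with earlier results of these data known. A gene of the oligodendrocyte list is not reported here, and values of that list are of its 6 other genes. Gene positions came from GENCODE and start regions from RefSeq. Doublets were not searched for, since each cell was patched singly. Alternatives changed the cells, scaling, pseudocount, filter and intronic reads. Scripts ran in Python 3.11.15 with numpy 2.4.6, scipy 1.17.1, pandas 2.3.3 and matplotlib 3.10.9, and were tested on simulated data.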

Additional observations from a re-analysis of the deposited data

How the results depend on the processing

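Counts of genes past 2-fold moved with the cells and settings used. Without the filter, 33670 genes in place of 10170 were compared between Pvalb Reln and the other Pvalb cells. Against Pvalb Il1rapl2 these numbers were 30595 and 10094. Against the other Pvalb cells, 198 genes were higher in Pvalb Reln with all cells, against 367 on the earlier dates, 645 in the last year of dates, 324 on dates with both groups, 120 with a pseudocount of 5 and 891 without a filter. The 427 lower genes became 1284 in the last year, 251 with a pseudocount of 5, 1781 without a filter and 735 in cells with microglia markers under 500 CPM, the alternative chosen after seeing the data. Against Pvalb Il1rapl2, the 352 higher genes became 1189 in the last year, 529 on shared dates, 234 with a pseudocount of 5 and 1422 without a filter, and the 435 lower genes became 1614, 270 and 1734 in the last year, with a pseudocount of 5 and without a filter, 271 with intronic counts added and 830 with microglia markers under 500 CPM. The last-year and microglia settings hold 17 and 38 Pvalb Reln cells. The cause of the moves between sets of cells, and with intronic counts added, was not tested. Among the results reported, directions reversed for Cnr1 (0.85) on the earlier dates, for Csf1r in the last year (-0.18), and for H2-K1 (-0.92), Ighm (-0.11) and Unc93b1 (-0.91) with microglia markers under 500 CPM. Nearest-type assignment gave 35 to 42 of 72 cells to their own type. No analysis paired by animal was possible because the labels name no animal and give the t-types no shared replicate numbers, and no test was run. Cells of shared dates were compared by direction and fold change only. At this depth, a cell without a Reln read is not shown to lack it.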
